A study of Mus musculus with 50 samples.

Results

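The 9 genes mt-Nd1, mt-Nd2, mt-Nd4, mt-Nd5, mt-Cytb, mt-Co1, mt-Co2, mt-Co3 and mt-Atp6 are mitochondrially encoded genes of the respiratory chain, and they were taken by symbol from a table of 37701 genes. Each symbol matched 1 row of the table, and all 9 members passed the filter on a mean RPKM of at least 0.5 that left 16733 genes for testing. RPKM is the number of reads of a gene per kilobase of its length, scaled to a common library size. The table holds 37 mitochondrially encoded genes, of which 22 are transfer RNA genes, 6 are the other messenger and ribosomal RNA genes and 9 are the members.

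The values come from 50 mammary gland tumors of female p53R270H/+WAPCre mice, 1 tumor per mouse and 10 per group. These mice, in all 5 groups, carry a heterozygous mutant p53 allele that is switched on by Cre under the whey acidic protein promoter, which is active in mammary epithelium. From an age of 8 weeks they received vehicle, insulin, glargine, X10 or IGF1 under the skin every other day until a tumor had developed. X10 and glargine are analogues of insulin with an altered amino acid sequence, whereas IGF1 is a growth factor related to it. Tumors were collected at a size of 1 cm3 and 24 h after the last injection, and per the study's methods EMT-like tumors with a latency close to the group median had been chosen. The study reports a decreased tumor latency with X10 and IGF1. Age at collection and duration of treatment therefore cannot be told apart from these treatments. The tumors titled Untreated were taken as the vehicle group, and single tumors are named below by title, which ends in the mouse number. The labels also give each tumor a sequence sample id, and these ids run in blocks by treatment; whether they follow the order of library preparation or sequencing is not stated, and such an order and treatment cannot be told apart.

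The respiratory chain passes electrons from nutrients to oxygen and uses the energy to pump protons, and ATP synthase uses the proton gradient to make ATP. A few core subunits of complexes I, III, IV and V are encoded by the small circular genome of the mitochondrion, while all other subunits, and all of complex II, are encoded in the nucleus. The mitochondrial genes are transcribed as long precursors by the polymerase Polrmt with the factor Tfam, cut into single messenger RNAs and polyadenylated, and the complex of Lrpprc and Slirp keeps these messenger RNAs stable.

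In the GENCODE M21 annotation of GRCm38 all 9 members lie on the plus strand of the mitochondrial chromosome (M) as single exons. The complex I genes mt-Nd1, mt-Nd2, mt-Nd4 and mt-Nd5 span positions 2751 to 3707, 3914 to 4951, 10167 to 11544 and 11742 to 13565. The complex IV genes mt-Co1, mt-Co2 and mt-Co3 span 5328 to 6872, 7013 to 7696 and 8607 to 9390. The ATP synthase gene mt-Atp6 spans 7927 to 8607, and the complex III gene mt-Cytb spans 14145 to 15288. Members overlap other genes at 4 places: mt-Atp6 shares 43 bases with mt-Atp8 and 1 base with mt-Co3, mt-Nd4 shares 7 bases with mt-Nd4l, and mt-Nd5 shares 14 bases with mt-Nd6 on the opposite strand.

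Parts of the members are also present in the nuclear genome as pseudogenes, and a read from bases that are the same in both places can match either. The start of mt-Co2, an electron-accepting core subunit of cytochrome c oxidase, is shown with its copies Gm28661 and Gm13341, since mt-Co2 is among the members with the most such sequence. Capitals mark the bases that differ from the mitochondrial gene. The stretches are chrM:7013-7132 on the plus strand, chr1:24615446-24615565 on the minus strand and chr2:22587843-22587962 on the minus strand of GRCm38.
mt-Co2: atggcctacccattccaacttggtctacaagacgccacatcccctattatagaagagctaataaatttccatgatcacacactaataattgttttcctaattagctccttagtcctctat
Gm28661: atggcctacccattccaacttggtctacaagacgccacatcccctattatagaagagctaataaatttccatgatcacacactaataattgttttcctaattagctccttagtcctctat
Gm13341: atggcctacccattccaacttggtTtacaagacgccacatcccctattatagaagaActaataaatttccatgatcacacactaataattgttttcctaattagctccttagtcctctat
Over the 681 bases that align, Gm28661 did not differ from mt-Co2, while Gm13341 differed at 16 of 672 aligned bases (97.6% identity).

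In mt-Nd5, a proton-pumping core subunit of complex I, no stretch of 100 bases occurred unchanged in the other annotated transcripts searched. This search did not cover every nuclear chromosome. For contrast, a stretch of mt-Nd5 is shown with its copy Gm4076. It is bases 805 to 924 of mt-Nd5 (chrM:12546-12665, plus strand), beside chr13:85127296-85127415 on the minus strand, with differing bases in capitals.
mt-Nd5: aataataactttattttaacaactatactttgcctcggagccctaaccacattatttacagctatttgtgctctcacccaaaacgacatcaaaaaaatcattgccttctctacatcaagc
Gm4076: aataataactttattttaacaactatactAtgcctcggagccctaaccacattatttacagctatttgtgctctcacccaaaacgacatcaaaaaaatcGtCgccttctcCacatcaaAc
Gm4076 aligned to mt-Nd5 over 953 bases, of which 45 differed (95.3% identity).

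The members fell into 3 kinds by this measure, which counts how many windows of 100 bases occur unchanged in another annotated transcript searched. Copies on chromosomes outside the search are not counted. In mt-Co2, mt-Co3 and mt-Atp6 nearly every window did (99.5%, 99.9% and 99.5%), in copies on chromosome 1. In mt-Nd4 and mt-Co1 60.8% and 30.8% of windows did, and in mt-Nd2 3.20%. In mt-Nd1, mt-Nd5 and mt-Cytb 0 of 858, 1725 and 1045 windows did. Of the copies that share a window, Gm10222 (mt-Nd4l), Gm13341 (mt-Co2), Gm13340 (mt-Co1) and Gm13339 (mt-Nd2) have RPKM values in the table, with means of 406, 102, 84.9 and 26.2. The copies Gm10925, Gm28661, Gm28437, Gm28438, Gm28439 and Gm29216 were not used here, and how reads matching more than 1 place were assigned was not tested. RPKM values of mt-Co2, mt-Co3, mt-Atp6, mt-Nd4 and mt-Co1 are therefore uncertain to that extent, as are those of the neighbouring gene mt-Nd4l, of whose windows 98.5% occur in Gm10222. The same holds for mt-Nd3, of whose windows 97.6% occur in Gm28438.

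The 9 transcripts were among the abundant messenger RNAs of the tumors. Their summed share of all RPKM was 3.06% in the median tumor and ran from 1.70% in Untreated_162 to 5.06% in X10_111. The share averaged 3.06% ± 1.01 (SD, n = 10) with vehicle, 2.87% ± 0.513 with insulin, 3.29% ± 0.644 with glargine, 3.44% ± 0.773 with X10 and 2.88% ± 0.727 with IGF1 (n = 10 each). As a share of the recovered reads, which counts long transcripts more, the median was 2.08%, from 1.16% in Untreated_162 to 3.39% in glargine_64. Every group overlapped every other in the share of RPKM, and vehicle tumors alone ran from 1.70% to 4.72%. Libraries held 26.6 to 51.9 M reads, and the shallowest value of any member, mt-Nd5 in IGF1_160, still rested on 7058 reads, so that counting error was small beside the spread between tumors.

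**Figure D1:**
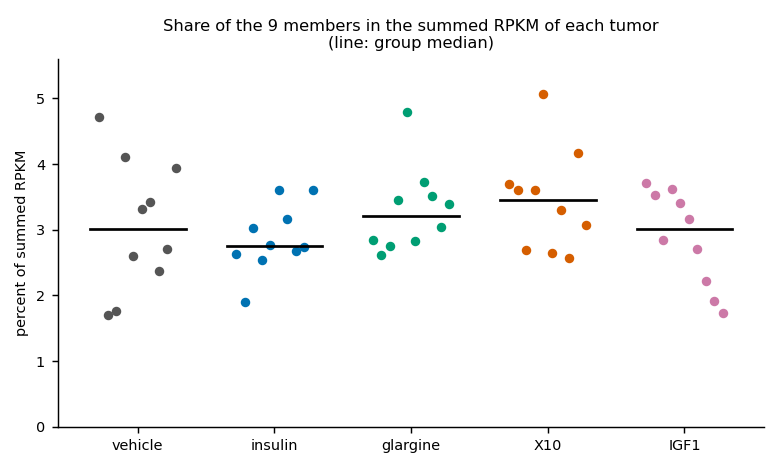
Summed RPKM of the 9 members as a percent of the summed RPKM of all genes (vertical axis, from 0) in each of the 10 tumors of the 5 treatment groups. Points are tumors and lines are group medians, and the groups overlap, with vehicle tumors spread from 1.70% to 4.72%.

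The members differed in level, and their order was set from the mean over tumors. Per length, mt-Co3 was highest with a mean of 4244 RPKM over the 50 tumors, followed by mt-Co2 (3869), mt-Co1 (3320), mt-Atp6 (2797), mt-Nd1 (2251), mt-Cytb (1986), mt-Nd4 (1370), mt-Nd2 (781) and mt-Nd5 (625). By these values the subunits of complex IV, which reduces oxygen, led the order, and 3 of the 4 complex I members closed it. The values of the complex IV members, mt-Atp6 and mt-Nd4 carry the uncertainty from nuclear copies given above. Its part in the order was not tested. In all 8 neighbouring pairs the mean log2 ratio within tumors differed from 0 (two-sided sign-flip permutation tests, 100000 resamples, largest adjusted p = 6e-05), in an order that was set on the same tumors. In 4 pairs, however, the mean ratio was smaller than its SD over tumors, so that single tumors often had the reverse order. These were mt-Co3 over mt-Co2 (0.13 ± 0.19, SD, higher in 38 of 50 tumors), mt-Co2 over mt-Co1 (0.24 ± 0.31, 39 of 50), mt-Co1 over mt-Atp6 (0.27 ± 0.30, 43 of 50) and mt-Nd1 over mt-Cytb (0.18 ± 0.24, 38 of 50). In contrast, mt-Cytb exceeded mt-Nd4, and mt-Nd4 exceeded mt-Nd2, in 50 of 50 tumors, the latter by 0.82 ± 0.14.

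Within groups the members varied to unequal degrees between tumors. The SD of log2(RPKM + 0.5) within groups was smallest for mt-Co2 (0.30) and mt-Co3 (0.34) and largest for mt-Nd5 (0.68), mt-Nd2 (0.53) and mt-Nd4 (0.52). Among the 157 nuclear genes with a mean of at least 500 RPKM the median SD was 0.39, and 21.7% of them varied less than mt-Co2 while 80.9% varied less than mt-Nd5. The members thus covered much of the range of other abundant transcripts.

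The 4 complex I members encode core subunits of the membrane arm of NADH dehydrogenase. The RPKM of mt-Nd1 ran from 1305 through a median of 2118 to 3627 in vehicle tumors, from 1418 through 1970 to 2515 in insulin tumors and from 1726 through 2243 to 3333 in glargine tumors. It ran from 1814 through 2347 to 4385 in X10 tumors and from 1122 through 2108 to 2927 in IGF1 tumors. Of the X10 tumors 2 were above every vehicle tumor for mt-Nd1, while the groups overlapped otherwise.

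The RPKM of mt-Nd5 ran from 229 through a median of 531 to 829 in vehicle tumors, from 361 through 649 to 977 in insulin tumors and from 261 through 709 to 1120 in glargine tumors. It ran from 363 through 593 to 1052 in X10 tumors and from 103 through 624 to 793 in IGF1 tumors. Of the insulin, glargine and X10 tumors 3, 3 and 2 were above every vehicle tumor for mt-Nd5, while the groups overlapped otherwise. The low end of the IGF1 group was 1 tumor, IGF1_160, which was below every vehicle tumor in 7 of the 9 members. Over all tumors mt-Nd2 ran from 223 to 1507 RPKM and mt-Nd4 from 394 to 2579, in both cases from IGF1_160 to glargine_64.

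Cytochrome b, encoded by mt-Cytb, is the mitochondrially encoded core of complex III. Its RPKM ran from 829 in IGF1_160 to 3716 in glargine_64, with group medians from 1764 in insulin to 2137 in glargine tumors. These medians differed by less than the range within any group.

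The complex IV members encode the catalytic core of cytochrome c oxidase. The RPKM of mt-Co2 ran from 2149 through a median of 4108 to 6171 in vehicle tumors, from 2712 through 3333 to 4019 in insulin tumors and from 3062 through 3958 to 5320 in glargine tumors. It ran from 2851 through 4327 to 5713 in X10 tumors and from 2637 through 3897 to 4556 in IGF1 tumors. Insulin tumors were the narrowest group for mt-Co2, and all 10 of them lay within the vehicle range, with 0 of 10 above the vehicle median.

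The RPKM of mt-Co3 ran from 2121 through a median of 3856 to 6496 in vehicle tumors, from 2512 through 3647 to 5105 in insulin tumors and from 3079 through 4406 to 5812 in glargine tumors. It ran from 3291 through 4854 to 6844 in X10 tumors and from 2769 through 4381 to 5008 in IGF1 tumors. In X10 tumors mt-Co3 was above the vehicle median in 9 of 10 tumors, of which 1 was also above the highest vehicle tumor. The largest subunit gene, mt-Co1, ran from 1681 in IGF1_160 to 5388 in glargine_64.

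The proton channel subunit of ATP synthase is encoded by mt-Atp6. Its RPKM ran from 1359 through a median of 2801 to 4578 in vehicle tumors, from 1369 through 2539 to 3361 in insulin tumors and from 1866 through 2685 to 4544 in glargine tumors. It ran from 2337 through 2950 to 6385 in X10 tumors and from 1211 through 2780 to 3280 in IGF1 tumors. The group medians were close, and the highest X10 value belonged to 1 tumor, X10_111.

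**Figure D2:**
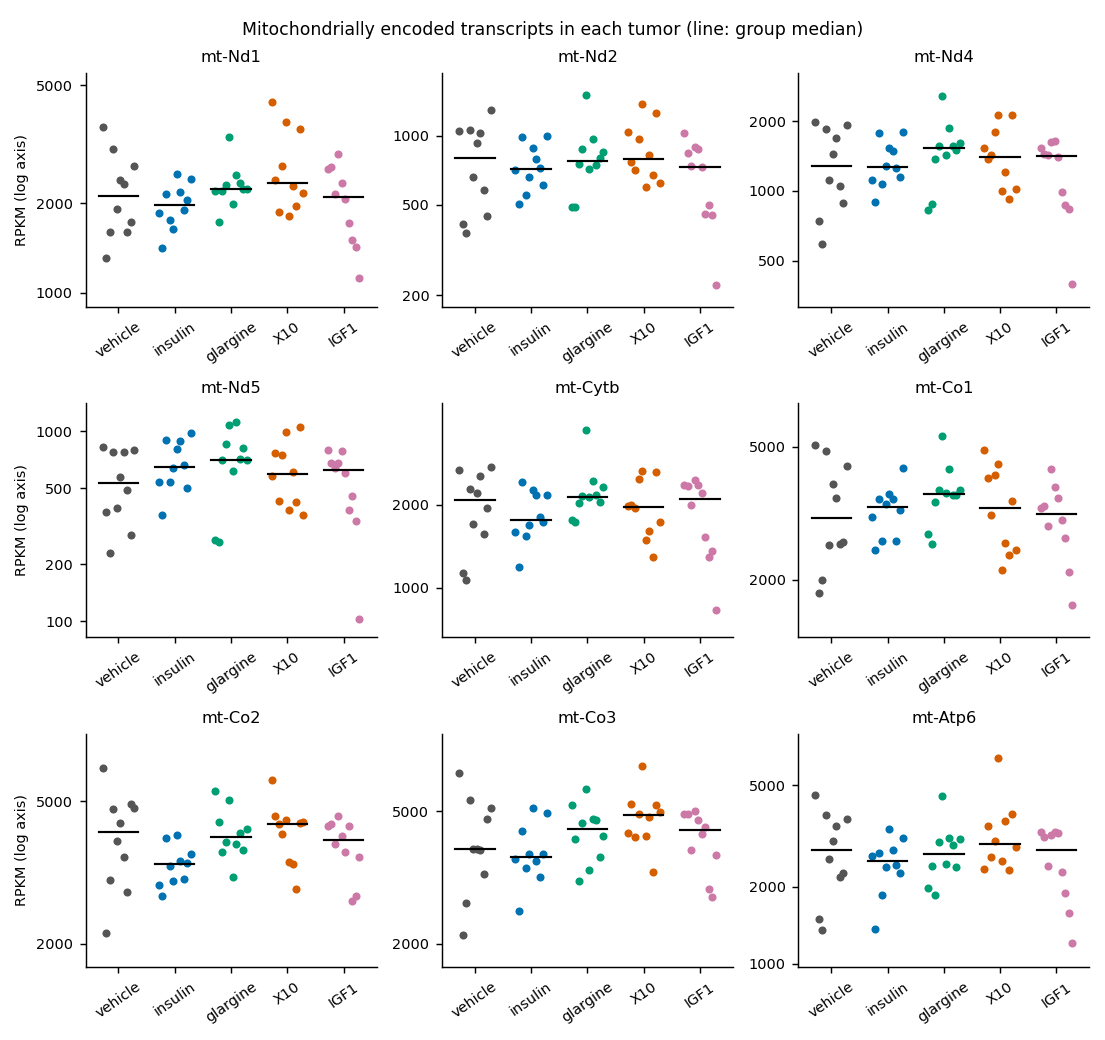
RPKM of each member (vertical axes, logarithmic, each panel with its own range) in the 10 tumors of each treatment group; points are tumors and lines are group medians. In each panel the groups overlap, and IGF1_160 is the lowest point of the IGF1 group for mt-Nd2 at 223 RPKM, mt-Nd4 at 394 RPKM and mt-Nd5 at 103 RPKM.

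Whether chronic treatment changed these transcripts was asked with limma on log2(RPKM + 0.5) over all 16733 genes, each group against vehicle. In X10 tumors the estimates of all 9 members were above 0, from 0.03 for mt-Cytb to 0.28 for mt-Nd1 and 0.26 for mt-Co3, with a median of 0.23 against -0.03 over all genes. The estimates of mt-Co1 and mt-Co2 turned below 0 with quantile normalization. The members' median was 0.10, with 7 of 9 estimates above 0, when the length slope of each tumor, a measure of the library described below, was a covariate. Without the 6 tumors of low length slope it was 0.04, with 5 of 9 above 0, and without the single tumor X10_111 it was 0.13, with 7 of 9 above 0. With limma, 0 of 9 members passed an adjusted p of 0.05, where 0.0657% of all genes did, and 0 of 9 had an unadjusted p under 0.05, where 11% of all genes did. For mt-Co3 the 95% confidence interval of the difference ran from -0.05 to 0.58 (adjusted p = 0.532).

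In IGF1 tumors 8 of the 9 estimates were below 0, from -0.21 for mt-Nd2 to 0.05 for mt-Co3, while mt-Co2 turned above 0 with marker scores as covariates and mt-Nd5 without the 6 tumors. The members' median was -0.09, and -0.07 without the 6 tumors, which include IGF1_160. A run without IGF1_160 alone, which was below every vehicle tumor in 7 of the 9 members, was not made. Again 0 of 9 members passed the adjusted p (0.00598% of all genes) and 0 of 9 the unadjusted p (8.84% of all genes). The 7 markers of mammary epithelium all had estimates below 0 in the same comparison, with a median of -2.18, and 5 of them had an unadjusted p under 0.05, but 0 the adjusted p. The comparisons with vehicle share the vehicle tumors and are therefore not independent of each other.

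In glargine tumors all 9 estimates were above 0, from 0.02 for mt-Atp6, which turned below 0 with library size or the length slope as a covariate and without the 6 tumors, to 0.36 for mt-Nd5, which was 0.20 with the length slope as a covariate. Without the single tumor glargine_64, which had the highest muscle markers, the members' median was 0.07 rather than 0.12, mt-Nd1 and mt-Nd2 were 0.04 and 0.01, and mt-Atp6 was -0.07. None of the 9 members passed the adjusted p in limma, as did 0% of all genes, and 0 of 9 passed the unadjusted p, where 6.23% of all genes did. The 7 white adipocyte markers had estimates above 0 in glargine tumors, with a median of 0.90, and 2 passed the unadjusted p. Of the 10 skeletal muscle markers 9 were above 0 (median 0.56, 0 at the unadjusted p), and of the 3 brown fat markers tested 2 were (median 0.79, 1 at the unadjusted p). In insulin tumors 4 estimates were above and 5 below 0, from -0.23 for mt-Co2 to 0.37 for mt-Nd5. Here too 0 of 9 members and 0% of all genes passed the adjusted p in limma, and 0 of 9 members passed the unadjusted p against 11.1% of all genes. The directions of mt-Nd1, mt-Cytb and mt-Co3 turned with quantile normalization and that of mt-Nd2 with marker scores as covariates. With the length slope as a covariate 0 of 9 estimates were above 0, and that of mt-Nd5 was -0.04 in place of 0.37; without the 6 tumors 1 of 9 was above 0. All 6 leukocyte markers had estimates above 0 in insulin tumors (median 0.58, 3 at the unadjusted p) and all 7 epithelial markers below 0 (median -1.19, 2 at the unadjusted p). With limma 0 of the markers named here for insulin and glargine passed the adjusted p, and the part of leukocytes in the members' values was not tested.

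**Figure D3:**
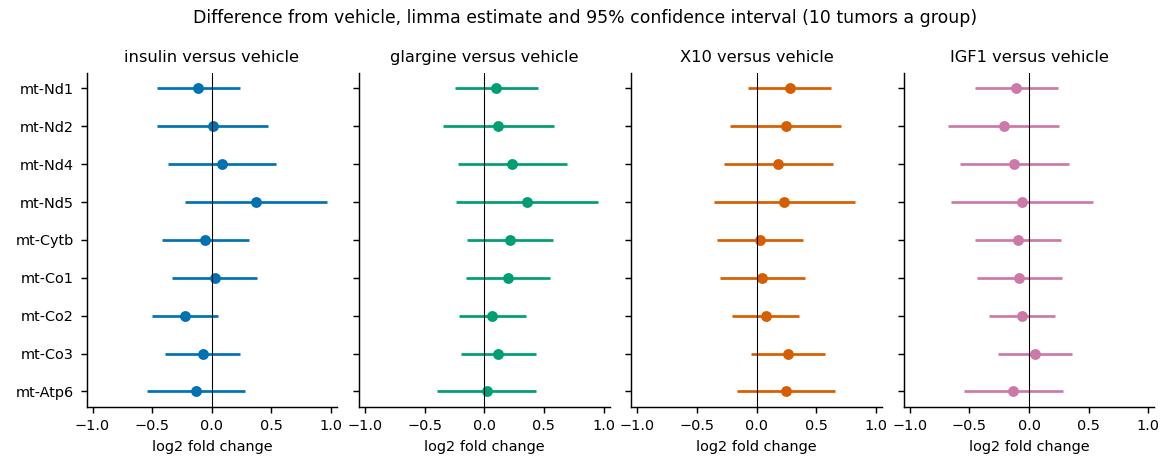
Difference from vehicle of each member on the log2(RPKM + 0.5) scale (horizontal axis) for insulin, glargine, X10 and IGF1 tumors; points are limma estimates and lines are 95% confidence intervals (n = 10 tumors per group). Every interval includes 0, and the widest are those of mt-Nd5, from -0.22 to 0.96 for insulin.

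When the 20 X10 and IGF1 tumors were set against the 30 other tumors, 4 members had estimates above and 5 below 0, with a median of -0.03 that was close to that of all genes (-0.02). The median was 0.02 with the length slope as a covariate, 0.01 without glargine_64 and -0.07 without X10_111. With limma 0 of 9 passed the adjusted p (0.155% of all genes) and 0 of 9 the unadjusted p (10.5% of all genes). The interval of mt-Nd5 ran from -0.54 to 0.22 and that of mt-Co3 from -0.06 to 0.34, so that a change by more than 1 on the log2 scale lay outside both. A test of any difference among the 5 groups also called 0 of 9 members, with adjusted p between 0.543 and 0.834 (0.102% of all genes), and 0 of 9 at the unadjusted p (13.1% of all genes).

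Between the ligands, 5 differences of members had an unadjusted p under 0.05 and 0 passed the adjusted p in limma. Of these, 3 were between X10 and insulin tumors: mt-Nd1 was higher in X10 by 0.39 ± 0.17 (SE, adjusted p = 0.363), mt-Co3 by 0.34 ± 0.16 (adjusted p = 0.377) and mt-Co2 by 0.30 ± 0.14 (adjusted p = 0.387). In that comparison 11.3% of all genes had an unadjusted p under 0.05 and 0.102% passed the adjusted p. The fourth was mt-Co2, higher in glargine than in insulin by 0.29 ± 0.14 (adjusted p = 0.990; 3.96% of all genes at the unadjusted p and 0% at the adjusted). The fifth was mt-Nd1, higher in X10 than in IGF1 by 0.38 ± 0.17 (adjusted p = 0.391; 11.7% and 0%). Of the 7 epithelial markers 6 were above 0 between X10 and insulin tumors (median 0.96, 1 at the unadjusted p) and 7 between X10 and IGF1 tumors (median 1.59, 3 at the unadjusted p). The 7 white adipocyte markers were above 0 between glargine and insulin tumors (median 1.09, 4 at the unadjusted p), as were all 10 muscle markers (median 0.57, 0 at the unadjusted p) and 5 of the 7 epithelial markers (median 0.96, 2 at the unadjusted p), while 5 of 6 leukocyte markers were below 0 (median -0.35, 0 at the unadjusted p). With limma 0 of these markers passed the adjusted p. With quantile normalization 0 members had an unadjusted p under 0.05 in these 3 comparisons, and the median of the members between X10 and insulin tumors was 0.03 rather than 0.23. With the length slope as a covariate 4 had one between X10 and insulin tumors and 0 between X10 and IGF1 tumors, and with upper quartile scaling 4 and 3 did. Without X10_111, 0 members had one in either comparison, and without glargine_64, 0 had one between glargine and insulin tumors. All 9 estimates were above 0 between X10 and IGF1 tumors, from 0.12 to 0.46, and 7 were without the 6 tumors of low length slope. Their median was 0.29, against 0.15 without these tumors and 0.16 with the length slope as a covariate. Between IGF1 and insulin tumors 4 of 9 estimates were above 0, against 1 with quantile normalization and 8 with the length slope as a covariate. In the comparisons of IGF1 with insulin and of glargine with X10 and IGF1, 0 of 9 members passed the unadjusted p (7.3%, 11.6% and 6.98% of all genes) or the adjusted p (0.00598%, 1.78% and 0%).

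Of the 6 other messenger and ribosomal RNA genes of the mitochondrial genome, 0 passed the adjusted p in limma in any comparison of 2 groups or of X10 and IGF1 with the rest. Between X10 and vehicle tumors 2 of them, mt-Nd3, a small complex I subunit, and mt-Rnr2, the large ribosomal RNA, had an unadjusted p under 0.05, as did 11% of all genes. At the unadjusted p 3 of 6 were lower in glargine than in X10 tumors (11.6% of all genes), 2 were higher in X10 than in IGF1 (11.7%), 1 was higher in X10 than in insulin (11.3%) and 1 was higher in X10 and IGF1 tumors than in the other tumors (10.5%). The RPKM of mt-Nd3 ran from 509 through a median of 814 to 1414 in X10 and from 278 through 609 to 831 in vehicle tumors, a log2 difference of 0.48 ± 0.18 (SE, adjusted p = 0.327). That of mt-Rnr2 ran from 288 through 630 to 1440 and from 142 through 442 to 717, a log2 difference of 0.65 ± 0.26 (adjusted p = 0.352). The highest mt-Nd3 value belonged to X10_111, and the limit that Gm28438 sets applies to mt-Nd3. Neither difference was rerun without X10_111 or with the length slope as a covariate. The only gene of this list on the other strand, mt-Nd6, had a mean of 12.4 RPKM. The libraries were Poly-A selected, and how fully this captured mt-Nd6 and the ribosomal RNAs was not tested.

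Among the nuclear genes of the same complexes, between X10 and vehicle tumors 28 of 37 complex I genes, 4 of 4 complex II genes, 4 of 9 complex III genes, 7 of 10 complex IV genes and 8 of 15 complex V genes had estimates below 0, and 0 of these passed the adjusted p in limma. Unadjusted p-values under 0.05 were found for 6 complex I genes and 1 complex II gene, each lower in X10, and for 1 higher and 1 lower gene in each of complexes IV and V, where 11% of all genes had one. The lists' medians were -0.09 for complex I, -0.12 for complex II, 0.00 for complex III, -0.09 for complex IV and -0.09 for complex V, beside -0.03 for all genes and 0.23 for the members. The difference between these medians was not tested, and that of the members was 0.04 without the 6 tumors, 0.10 with the length slope as a covariate and 0.13 without X10_111. In insulin tumors more of these genes lay below vehicle, with 36 of 37 complex I, 4 of 4 complex II, 8 of 9 complex III, 9 of 10 complex IV and 14 of 15 complex V genes, of which 9, 0, 0, 2 and 4 had an unadjusted p under 0.05 (11.1% of all genes). In IGF1 tumors 22 of 37 complex I, 1 of 4 complex II, 6 of 9 complex III, 9 of 10 complex IV and 6 of 15 complex V genes lay above vehicle. In glargine tumors 17 of 37, 3 of 4, 8 of 9, 5 of 10 and 7 of 15 did. With limma 0 passed the adjusted p in these comparisons with vehicle. Medians over all genes were 0.03 for insulin, 0.02 for IGF1 and 0.02 for glargine. The median length slope was 0.01 in vehicle, 0.07 in insulin, 0.06 in glargine, 0.05 in X10 and -0.03 in IGF1 tumors. The nuclear lists were not rerun with the length slope as a covariate or without the 6 tumors. The part of the slope in their values was not tested. Between X10 and insulin tumors Atp5c1, the gamma subunit of ATP synthase, was higher in X10 by 0.45 ± 0.10 (SE, limma, adjusted p = 0.0419), where 0.102% of all genes passed. Of the 15 complex V genes 12 were higher and 3 lower in X10. At the unadjusted p 3 were higher and 0 lower (11.3% of all genes). This call was not checked in the alternative runs described below, which were read for the members.

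Of 8 biogenesis regulators, Pprc1, a coactivator of the nuclear respiratory factors, was lower in X10 than in vehicle tumors by a log2 fold change of -0.51 ± 0.11 (SE, adjusted p = 0.0473), where 0.0657% of all genes passed. It too was not checked in the alternative runs. Including Pprc1, 3 of the 8 had an unadjusted p under 0.05, each of them lower in X10. Of the 14 genes of mitochondrial DNA transcription and replication, the 20 of RNA processing and stability and the 11 translation factors that were tested, 0 passed the adjusted p in that comparison, and 2, 3 and 1 had an unadjusted p under 0.05, where 11% of all genes did. In IGF1 tumors 0 genes of these 4 lists passed the adjusted p, and 1, a gene of RNA processing and stability, the unadjusted p, where 8.84% of all genes did.

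The members rose and fell together from tumor to tumor. In a principal component analysis of values centred within groups, the first component held 84.4% of their variance with loadings of one sign, and the second 9.01%. On the second component mt-Co2 (0.56) and mt-Co3 (0.52) stood opposite to mt-Nd5 (-0.54). Of the 36 pairs of members, 35 were correlated across the 50 tumors (permutation tests with 100000 resamples, adjusted p under 0.05 over the 36 pairs), with a median Pearson r of 0.82.

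The tightest pair was mt-Nd2 and mt-Nd4, with r = 0.96 and rho = 0.95 (permutation, adjusted p = 1.2e-05 and 1.3e-05), r = 0.95 without the 2 farthest tumors and r = 0.97 within groups. The loosest was mt-Nd5 and mt-Co2, with r = 0.25 (permutation, adjusted p = 0.0789), rho = 0.30 (adjusted p = 0.0307), r = 0.23 without the 2 farthest tumors and r = 0.29 within groups. With mt-Co2, the complex I members mt-Nd2 and mt-Nd4 each reached only r = 0.49. Within groups, and after scaling to genes that are not mitochondrially encoded, all 36 pairs passed.

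**Figure D4:**
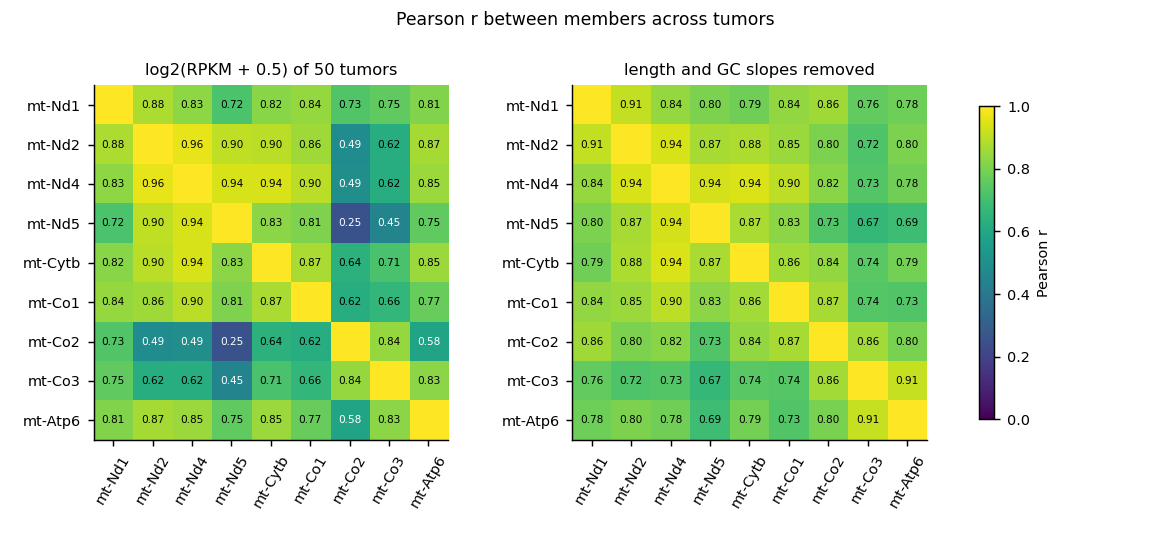
Pearson r of each pair of members over the 50 tumors, on log2(RPKM + 0.5) (left) and after the length and GC slopes of the tumors were removed by regression (right); both axes list the members and color gives r from 0 to 1. On the left mt-Co2 and mt-Nd5 have r = 0.25, and on the right the lowest r is 0.67.

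The loose pairs went with a property of the whole library. For each tumor the slope of log2(RPKM + 0.5), relative to each gene's mean over tumors, on log2 transcript length was computed over 9680 nuclear protein-coding genes, and a GC slope was computed in the same way on the GC percent of the transcript with length in the same regression. This length slope was -0.40 to 0.18 per doubling of length, and 6 tumors lay under -0.15: Untreated_174, Untreated_195, glargine_47, glargine_53, IGF1_145 and IGF1_160. Insulin and X10 tumors had 0 below that value. In a tumor of low slope, long nuclear transcripts have low values relative to short ones.

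The RPKM ratio of mt-Co2 to mt-Nd5, chosen after its values were seen, ran from 3.38 in glargine_69 to 33.8 in IGF1_160, with a median of 5.91. It was 19.9 in glargine_47, 17.3 in Untreated_195, 16.8 in glargine_53, 13.2 in Untreated_174 and 11.1 in IGF1_145. These 6 tumors are those of low length slope, and together with X10_120 at 12.0 they had the highest ratios. The log2 ratio had r = -0.90 and rho = -0.78 with the length slope (permutation, adjusted p = 1.4e-05 for both over 7 ratios), r = -0.88 without the 2 farthest tumors and r = -0.90 within groups. With library size its r was 0.08.

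Short open reading frames that share a transcript with a member went the other way, and were low against their longer partner in tumors of low slope. The transcripts of mt-Atp8 and mt-Atp6, and of mt-Nd4l and mt-Nd4, are each a joint messenger RNA with overlapping coding sequences. The ratio of mt-Atp8 (204 bases) to mt-Atp6 (681 bases) ran from 0.134 in IGF1_160 to 0.605 in IGF1_124, with r = 0.90 and rho = 0.66 with the length slope (permutation, adjusted p = 1.4e-05 for both). That of mt-Nd4l (297 bases) to mt-Nd4 (1378 bases) ran from 0.0443 in IGF1_160 to 0.297 in insulin_37, within the limit that Gm10222 sets on mt-Nd4l, with r = 0.80 and rho = 0.60 (permutation, adjusted p = 1.4e-05 for both). By comparison, the ratio of mt-Nd4 to mt-Nd2 stayed between 1.38 and 2.17, with r = -0.08 (permutation, adjusted p = 0.599). Without the 2 farthest tumors r was 0.85, 0.70 and -0.18 for these 3 ratios.

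**Figure D5:**
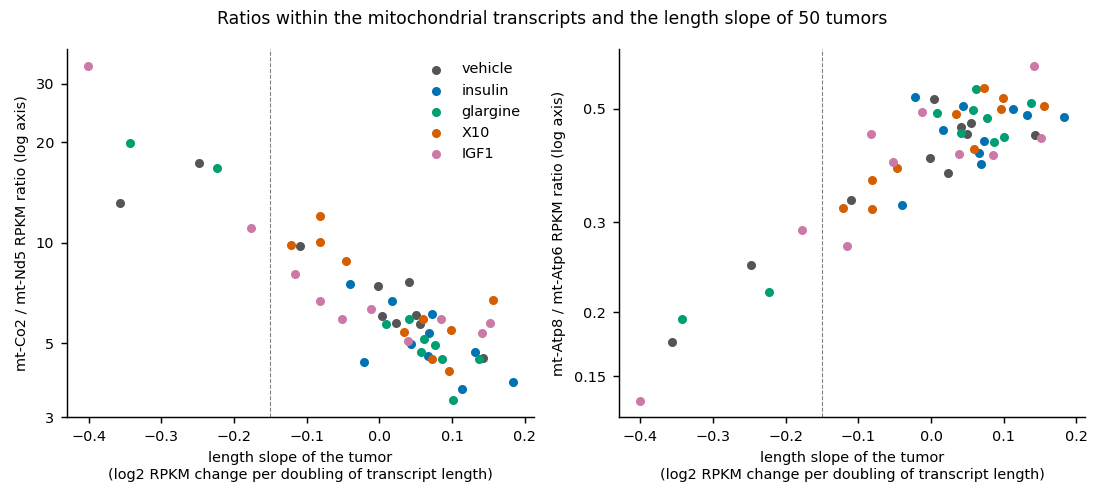
RPKM ratio of mt-Co2 to mt-Nd5 (left) and of mt-Atp8 to mt-Atp6 (right), on logarithmic vertical axes, against the length slope of the tumor (horizontal axis, log2 RPKM per doubling of transcript length over nuclear genes). Points are 50 tumors colored by group and the dashed line marks -0.15; the left ratio rises to 33.8 and the right falls to 0.134 in IGF1_160, the tumor of lowest slope.

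Taken 1 by 1, mt-Nd5 followed the length slope most closely (r = 0.78, rho = 0.58, permutation, adjusted p = 4.5e-05 and 0.00036), then mt-Nd2 and mt-Nd4 (r = 0.61 each). For mt-Co3 r was 0.04 and for mt-Co2 -0.24 (permutation, adjusted p = 0.766 and 0.103). By rank mt-Co2 passed in the opposite direction to mt-Nd5, with rho = -0.34 (permutation, adjusted p = 0.0295), and r was -0.41 without the 2 farthest tumors. Of 18 relations of members with the length slope and the GC slope, 14 passed an adjusted p of 0.05 by Pearson's r, and 11 by Spearman's rho. After both slopes were removed by regression, all 36 pairs of members passed and the lowest r was 0.67. The length slope as a covariate, or leaving out the 6 tumors of low slope, gave 0 of 9 members past the adjusted p in every comparison. Without these 6 tumors, 5 rather than 9 estimates were above 0 between X10 and vehicle tumors. What sets the length slope of a tumor was not tested.

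Messenger RNA levels of the factors that make and stabilise these transcripts were compared with them across tumors. Lrpprc passed with 7 of 9 members by Pearson's r (permutation tests, adjusted p under 0.05 over 54 relations), at most with mt-Nd5 (r = 0.63, adjusted p = 0.00027). By Spearman's rho it passed with 0 of 9 (mt-Nd5 rho = 0.41, permutation, adjusted p = 0.0536), and with the slopes removed with 0 of 9 (mt-Nd5 r = 0.29). Without the 2 farthest tumors r with mt-Nd5 was 0.41. Within groups, and after scaling to genes that are not mitochondrially encoded, it passed with 7 of 9. The relations with Lrpprc thus did not hold by rank or with the slopes removed.

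Tfam, which packages mitochondrial DNA and starts its transcription, passed with 2 of 9 members, mt-Nd2 (r = 0.39, permutation, adjusted p = 0.0337) and mt-Nd1 (r = 0.38, adjusted p = 0.0411), with 5 of 9 within groups and with 7 of 9 after scaling to genes that are not mitochondrially encoded. By Spearman's rho, and with the slopes removed, it passed with 0 of 9, and without the 2 farthest tumors r was 0.22 with mt-Nd2 and 0.18 with mt-Nd1. Polrmt, the polymerase, and Slirp, the partner of Lrpprc, passed with 0 of 9, with r from -0.29 to 0.02 and from -0.33 to 0.34. For the 5 members of complexes III, IV and V, a nuclear subunit of the same complex (Uqcrc1, Cox4i1 or Atp5b) passed with 0 of 5, with r from -0.24 to 0.10, so that a relation between the mitochondrial transcript and this partner was not detectable with 50 tumors. Library size passed with 0 of 9, with r from -0.21 to 0.10.

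Outside the mitochondrial genome, the 5 genes whose pattern was most like the mean of the members (group-centred values, 50 tumors, 16700 genes, median r = 0.01) were the pseudogenes Gm10222 (r = 0.80), Gm13340 (0.79), Gm13341 (0.79), Gm11407 (0.75) and Gm4076 (0.73). All 5 hold stretches of at least 50 bases found unchanged in mitochondrial genes, as the alignment of Gm4076 above shows. The next genes without such a stretch, named after their values were seen, were Zfp229 (0.71), Rhbdd1 (0.71) and Zkscan1 (0.70). The 5 least like were Gemin7 (-0.68), Ppp1r12c (-0.67), Il3ra (-0.67), Tmem234 (-0.66) and Paf1 (-0.66). The length and GC slopes were not removed from the values for this ranking. The part of the slopes in it was not tested.

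The tumors differed in the other tissues they held, and in bulk RNA fewer cells of a type and less RNA per cell cannot be told apart. All 10 skeletal muscle markers were measured, with sums from 6.16 to 5301 RPKM, and the highest was glargine_64, where Acta1 reached 1940 and Ckm 728 RPKM. That tumor had the second-highest member share of RPKM (4.79%) and the highest of reads, whereas over the 13 tumors with summed muscle markers above 500 RPKM the share ran from 1.90% to 4.79%. Mean RPKM of mt-Cytb in glargine tumors was 2245 with and 2082 without glargine_64. Of the 6 brown fat markers 3 had a mean of at least 0.5 RPKM, and their sum ran from 1.87 to 65.2 RPKM, with a median of 12.4 in glargine and 4.18 in vehicle tumors. Ucp1, which defines brown fat, was under 0.5 RPKM in 47 of 50 tumors.

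Markers of mammary epithelium, in which the tumors arose, varied as well, with Epcam from 0.529 to 302 RPKM, Krt8 from 2.39 to 1616 RPKM and the 7 epithelial markers summing to 12.0 to 4548 RPKM. In X10_111, the tumor of highest member share of RPKM, Epcam was 109 RPKM, and in Untreated_174, of a share of 1.76%, it was 302 RPKM. Leukocyte marker sums ran from 589 to 2614 RPKM, white adipocyte sums from 20.6 to 642 RPKM, endothelial sums from 45.9 to 131 RPKM, fibroblast sums from 2591 to 31328 RPKM and erythroid sums from 62.9 to 2108 RPKM. With muscle, adipocyte and epithelial scores as covariates 0 of 9 members passed the adjusted p in any comparison.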

How the data were processed

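Tumor RNA was Poly-A selected and sequenced on the Ion Proton. The authors aligned reads to GRCm38 with TopHat2 (2.0.10) and Bowtie2, counted them with HTSeq (0.6.1, default options) and deposited RPKM values; the versions are from the submitters' processing notes. All values of a gene are multiples of 1 step, and library sizes were recovered from these steps (26.6 to 51.9 M reads; at least 99.5% of low values whole); no count test was run.

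The members and gene lists were chosen with earlier results of these data known. Each gene was tested with limma 3.58.1 (R 4.3.3, 5 groups in 1 fit, intensity trend) on log2(RPKM + 0.5) for the 16733 genes whose mean RPKM reached 0.5, with Benjamini-Hochberg adjustment; the script was tested on simulated data. Correlations used two-sided permutation tests with 100000 resamples, for which 1e-05 is the smallest p. They were run in Python 3.11.15 with scipy 1.17.1. Positions and transcript sequences were taken from GENCODE M21 (GRCm38). Genes named are the members, the other mitochondrially encoded genes, list genes with an adjusted p under 0.05, regulators, partner subunits and markers, nuclear copies, and the 5 most and 5 least alike genes. The relations of the complex I members with a nuclear subunit are not reported here.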

Additional observations from a re-analysis of the deposited data

Results flagged for a closer look

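Within a group of 10 tumors, the gap between the highest value and the next was large against the group's whole range (Dixon's test) in 5 of 45 combinations of member and group, where chance alone flags about 1 in 20. The combinations are not independent, since the members rose and fell together and 4 of the 5 belong to 1 tumor, so that the count points to 2 tumors and no more. In glargine_64 this held for mt-Nd1 (3333 RPKM, next 2485), mt-Nd2 (1507, next 970), mt-Cytb (3716, next 2425) and mt-Atp6 (4544, next 3124). This tumor also had the highest skeletal muscle markers of all 50, with Acta1 at 1940 RPKM against 834 in the next tumor and Ckm at 728 RPKM against 450. The part of muscle in these values was not tested. In X10_111 it held for mt-Atp6 (6385 RPKM, next 3873), and without this tumor the mean of mt-Atp6 in X10 tumors was 2965 ± 571 RPKM (SD, n = 9) rather than 3307.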

How the results depend on the processing

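The count of members past the adjusted p was 0 in each comparison under each alternative run, with adjusted p of single members of at least 0.163. Tried were pseudocounts of 0.1 and 1, every nonzero gene or a filter at 5 RPKM, quantile normalization, upper quartile scaling, scaling to genes that are not mitochondrially encoded, no intensity trend, only the groups compared, and library size or marker scores as covariates; the length slope, the 6 tumors left out and the single tumors glargine_64 and X10_111 left out were added after seeing the data. Directions against vehicle, and for X10 and IGF1 against the rest, that turned were as follows on the log2 scale, none of them past the threshold. With quantile normalization, against vehicle, mt-Nd1 (0.034), mt-Cytb (0.048) and mt-Co3 (0.079) turned for insulin and mt-Co1 (-0.091) and mt-Co2 (-0.087) for X10, as did mt-Co2 (-0.052) for X10 and IGF1 against the rest. With marker scores mt-Nd2 (-0.052) turned for insulin and mt-Co2 (0.021) for IGF1, and with library size mt-Atp6 (-0.0096) for glargine. With the length slope as a covariate mt-Nd2 (-0.25), mt-Nd4 (-0.16), mt-Nd5 (-0.036) and mt-Co1 (-0.11) turned for insulin, mt-Atp6 (-0.055) for glargine, mt-Cytb (-0.055) and mt-Co1 (-0.031) for X10, and mt-Nd2 (0.020) for X10 and IGF1 against the rest. Without the 6 tumors mt-Nd2 (-0.19), mt-Nd4 (-0.11) and mt-Co1 (-0.092) turned for insulin, mt-Atp6 (-0.055) for glargine, mt-Nd4 (-0.0097), mt-Nd5 (-0.014), mt-Cytb (-0.070) and mt-Co1 (-0.069) for X10, and mt-Nd5 (0.011) for IGF1. Without glargine_64 mt-Atp6 (-0.065) turned for glargine and mt-Nd2 (0.0061) for X10 and IGF1 against the rest, and without X10_111 mt-Cytb (-0.023) and mt-Co1 (-0.0039) for X10. Between the ligands, over these alternatives, the members above 0 were 1 to 8 for IGF1 against insulin (4 as reported), 6 to 9 for X10 against insulin (8), 7 to 9 for X10 against IGF1 (9), 7 to 9 for glargine against insulin (8), 3 to 5 for glargine against X10 (4) and 9 for glargine against IGF1 (9). The cause was not tested.

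Of the 54 relations with regulators, partner subunits and library size, 9 passed, against 15 of 45 after scaling to genes that are not mitochondrially encoded, where library size was not included, and 0 of 54 with the length and GC slopes removed. The median summed share of the members was 2.48% to 3.17% with other sums of RPKM or 1 member left out, and 2.08% as a share of recovered reads. No paired analysis was possible because replicate numbers are mouse numbers that are not shared between groups. Doses are not in the labels. RPKM are relative values, so that a change of all transcripts together is not seen.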
